A study of Mus musculus with 3 samples.

Results

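The potassium channel genes of the mouse were examined for chromatin occupied by the forkhead transcription factor Foxf2 in the embryonic tongue. Members were all protein-coding genes of the mm10 build whose symbol starts with Kcn, 94 of 21938 genes, and every Foxf2-FLAG peak whose centre lay nearest to a transcription start site (TSS) of such a gene, 195 of 25704 peaks. The rule used gene names and positions, and no measured value of a peak, but the family was chosen with earlier results of these data known. Tongues came from E12.5 embryos homozygous for an endogenous Foxf2 allele carrying a 3xFLAG tag placed by CRISPR editing, and chromatin was recovered with an antibody against FLAG. The 2 ChIP libraries and the 1 input library, which served as control for peak calling, all carried this tagged allele, and the labels give 75 tongues for each sample without saying whether that is per library or in all. The deposited values were 1 list of peaks with a score and a focus ratio each and no value per library, so no replicate spread could be given, depth was unknown, and no test was made. No FLAG ChIP from untagged tongues was used here, and the whole tongue bud was sampled, so the cell type behind a peak was not resolved. Shares carry exact (Clopper-Pearson) 95% intervals, which cover counting error only.

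Potassium channels let potassium ions cross the cell membrane and set its resting potential, and they shape excitability, secretion and volume control in nearly every cell type. The voltage-gated family opens on depolarisation, inward rectifiers hold the membrane near the potassium equilibrium potential, channels with a pair of pore domains carry leak currents, and calcium- or sodium-activated channels open when these ions rise inside the cell. Auxiliary subunits (the Kcnmb, Kcne, Kcnip and Kcnab groups) tune gating or trafficking. Foxf2 is expressed in craniofacial mesenchyme, and its loss in mice is known for cleft palate with tongue abnormalities. Forkhead factors bind DNA through a shared core, searched here as the word ATAAACA, its variant ATAAATA, the related word GTAAACA or its variant GTAAATA, on both strands of the central 200 bp of each peak.

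The core is shown first in the highest-scored forkhead-bearing peaks of 5 genes and in the sharpest peak of Kcnh1. The sequences are the plus strand of mm10 (GRCm38) with core matches in capitals, and a match on the minus strand therefore reads as its reverse complement.
Kcnma1, chr14:23293138-23293167: tttctcatgggATAAACAgaccaggggaaa
Kcna1, chr6:126685214-126685413: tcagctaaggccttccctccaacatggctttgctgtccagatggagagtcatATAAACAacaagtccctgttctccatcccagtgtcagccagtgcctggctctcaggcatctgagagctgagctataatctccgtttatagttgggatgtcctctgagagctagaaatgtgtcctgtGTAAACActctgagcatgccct
Kcnj2, chr11:111583788-111583857: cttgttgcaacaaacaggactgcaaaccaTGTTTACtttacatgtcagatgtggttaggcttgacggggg
Kcnq1, chr7:143165853-143165922: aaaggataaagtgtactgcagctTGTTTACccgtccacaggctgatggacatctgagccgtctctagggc
Kcnj6, chr16:94972184-94972253: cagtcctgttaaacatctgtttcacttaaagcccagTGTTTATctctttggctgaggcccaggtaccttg
Kcnh1, chr1:192476827-192476896: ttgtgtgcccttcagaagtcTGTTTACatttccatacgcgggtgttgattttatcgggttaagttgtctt

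A different sequence marked 5 of the peaks. RE1 is the element bound by the repressor REST (NRSF), known for keeping neuronal genes silent outside neurons. It was chosen because earlier results tied sharp peaks to it. It was searched as TTCAGCACC and GGACAGCGC separated by 2 bases, on both strands, with up to 4 mismatches in the 18 letters. Capitals mark the letters that match, and the surrounding 15 bases are given on either side.
Kcnk9, chr15:72568691-72568740: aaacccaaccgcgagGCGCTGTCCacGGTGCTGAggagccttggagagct
Kcnk9, chr15:72689966-72690015: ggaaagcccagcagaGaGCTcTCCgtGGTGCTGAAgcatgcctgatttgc
Kcnab2, chr4:152424525-152424574: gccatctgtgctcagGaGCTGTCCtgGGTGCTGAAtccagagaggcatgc
Kcnip1, chr11:33787537-33787586: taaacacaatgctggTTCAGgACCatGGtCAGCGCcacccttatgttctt
Kcnk10, chr12:98588745-98588794: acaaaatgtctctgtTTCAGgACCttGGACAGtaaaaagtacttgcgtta

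Of the 94 potassium channel genes, 55 had at least 1 peak, 58.5% (47.9 to 68.6), against 37.3% of all protein-coding genes. Channel genes also had more of the genome nearest to them. Each gene was given a territory, the stretch nearer to its start sites than to those of any other protein-coding gene, and the median territory was 107.8 kb for the channel genes and 47.0 kb for all genes. Among genes with the shortest territories (up to 28944 bp) 0 of 14 channel genes had a peak (0 to 23.2), against 12.7% of all such genes. Among those of middle length 6 of 20 had one, 30% (11.9 to 54.3) against 30.7%. Among those with the longest territories (over 80 kb) 49 of 60 had one, 81.7% (69.6 to 90.5) against 68.4%.

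The channel genes were thus near the background in the middle territories and above it in the longest ones, which hold 60 of the 94. The longest territories ran from 80137 to 4426338 bp, and lengths were not matched within that range. Whether a difference remains at like lengths was therefore not tested. Measured per length the order was the opposite: the channel genes had 0.763 peaks per 100 kb of territory, against 0.943 for all genes. Counting peaks within 10 kb of a start site gave 18 of 94 genes, 19.1% (11.8 to 28.6) against 19.4%. Counting peaks inside the gene itself gave 24 of 94, 25.5% against 23.4% of all genes. Other settings kept a higher share for the channel genes. Within 100 kb it was 55.3% against 35.1%, and with start sites of every biotype 39.4% against 25.9%. With peaks scored at least the median it was 40.4% against 24.6%, and with 1 start site a gene 61.7% against 37.4%. Territory length was not matched in any of these. Across the 94 genes the Spearman correlation of peak number with territory length was 0.675, and across all genes it was 0.556, both as descriptions of this list.

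**Figure D1:**
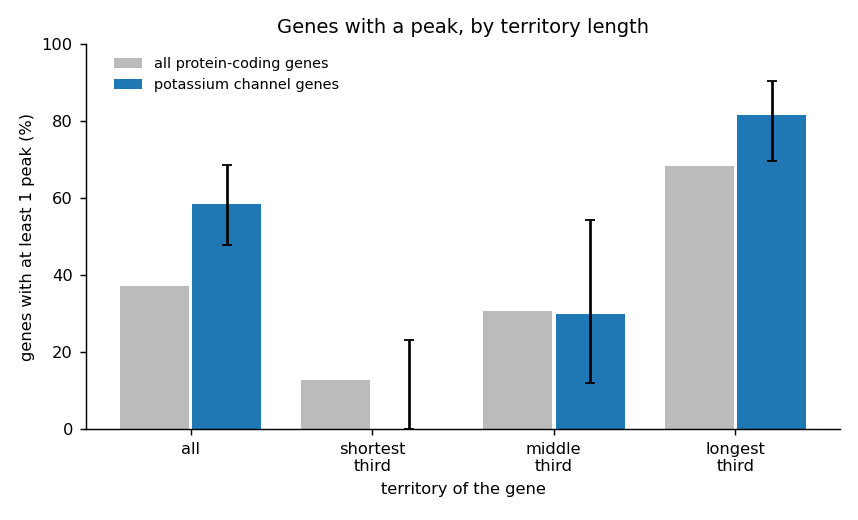
Share of genes with at least 1 peak (percent, vertical axis) for all protein-coding genes (grey) and potassium channel genes (blue), in all and by territory length, with bars for the exact 95% intervals. The channel genes stand at 58.5% against 37.3% over all lengths, and at 30% against 30.7% in the middle lengths.

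Peaks were unevenly spread over the family. There were 39 genes with none, 19 with 1, 23 with 2 to 4 and 13 with 5 or more, and Kcnma1, Kcnj2, Kcnq1 and Kcnj6 together held 59 of the 195 peaks (30.3%), with Kcnmb2 level with the last of these at 8. By class, a peak was found for 23 of 40 voltage-gated subunits, 8 of 15 inward rectifiers, 9 of 14 leak channels, 5 of 8 calcium- or sodium-activated channels, 9 of 16 auxiliary subunits, and Kcnrg, which encodes a regulator of voltage-gated channels. Classes were assigned by gene symbol, and their shares ran from 53.3% to 64.3% apart from Kcnrg. Each interval held the shares of the other classes. The 39 genes without a peak were of every class but the last, among them Kcnj11, the pore of the pancreatic ATP-sensitive channel, and Kcnn4, an intermediate-conductance calcium-activated channel. Both members on the X chromosome, Kcnd1 and Kcne1l, were without one. Of the 39 genes 1, Kcnq5, held 2 peaks inside its span that were nearest to start sites of other genes.

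The assignment to a gene rests on protein-coding start sites. For 73 of the 195 peaks the start site of the next protein-coding gene was under 1.5 times as far, and when start sites of every biotype, noncoding RNAs and pseudogenes included, were counted, 70 peaks were still nearest to the same channel gene. The order of the genes turned with this choice: Kcnma1 kept 2 of its 25 peaks, Kcnj2 2 of 16 and Kcnq1 1 of 10, while Kcnh1 kept 6 of 7 and Kcnj6 and Kcnmb2 5 of 8 each. For 6 of the 7 Kcnh1 peaks, though, the next protein-coding start site was under 1.5 times as far. This held for 0 peaks of Kcnj6 and 1 of Kcnmb2. By start sites of every biotype Kcnrg kept 0 of its 7 peaks, Kcne4 0 of 6, Kcnk9 0 of 4 and Kcnb2 0 of 3. Kcnj8 and Kcnn2 kept 0 of 2 each.

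**Figure D2:**
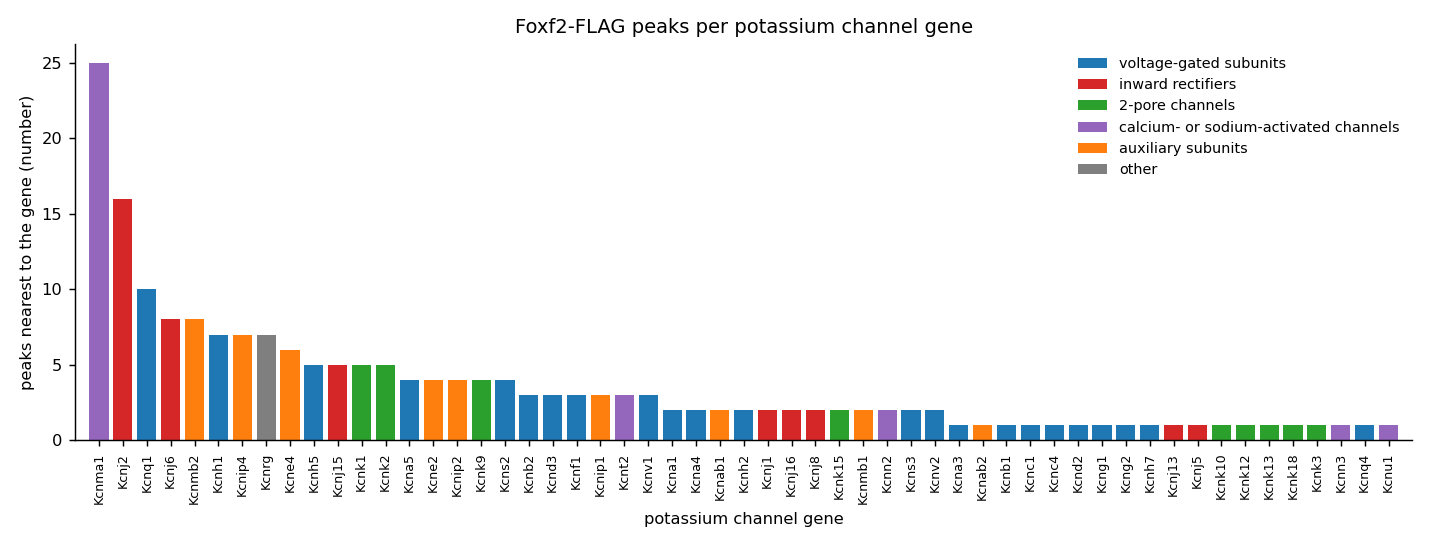
Number of peaks nearest to each of the 55 potassium channel genes with a peak (vertical axis), 1 bar a gene, coloured by class. Kcnma1 has 25, Kcnj2 16 and Kcnq1 10, and 19 genes have 1.

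Among the calcium-activated channels, Kcnma1 had the most peaks of the family by protein-coding start sites, though 2 by those of every biotype. It encodes the pore of the large-conductance (BK) channel, which opens on calcium and depolarisation and relaxes smooth muscle. Its 25 peaks scored from 10.4 to 126, with a median of 17.8, and 18 of them held a forkhead core. All lay downstream of the nearest of its annotated start sites: 15 were inside the gene (chr14:23289431-24014491), 8 inside its neighbour Lrmda and 2 in neither, and 10 were more than 500 kb from a Kcnma1 start site.

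The highest-scored Kcnma1 peak, at 126, was also the highest of all channel genes and ranked 59 in the whole list. It fell in the 3' untranslated part of a Kcnma1 transcript, 357 kb from the nearest start site, and its focus ratio, the share of signal near the peak centre as the caller reports it, was 0.761. Its only core, shown above, was 93 bp from the peak centre. The next Kcnma1 peaks scored 74.5, with a focus ratio of 0.909 and a GTAAACA match, then 67.9 and 57.1, neither with a core.

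The other calcium- or sodium-activated channels had few peaks. Kcnn2, which encodes a small-conductance calcium-activated channel, had 2, scored 57.1 and 14.4, both with a core. Kcnt2, a sodium-activated channel, had 3, and Kcnn3 and the testis channel Kcnu1 had 1 each. Kcnu1 was placed in this class by its symbol and not by which ions open it. The Kcnu1 peak scored 10.6, near the lowest score of the list, and stood 14 bp before the start site of a shorter Kcnu1 transcript, in a tandem repeat that carried 3 cores.

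Among the inward rectifiers, Kcnj2 had 16 peaks, all of them outside genes and downstream of it. Kcnj2 encodes Kir2.1, a channel known in humans for Andersen-Tawil syndrome, with facial and limb anomalies. The peaks scored from 10.2 to 82.3, with a median of 15.95, and 11 held a core. They began 89982 bp from the Kcnj2 start site, and 11 were more than 500 kb away. The next-nearest protein-coding start site of all 16 was that of its neighbour Kcnj16, also an inward rectifier. The 1716 kb between the start sites of Kcnj2 and Sox9, a regulator of cartilage and other cell fates, held 39 peaks, 2.27 per 100 kb against 1.06 over the autosomes. Of these 16 were nearest to Kcnj2 and 23 to Sox9, and the highest-scored one of Kcnj2 was 518 kb from Kcnj2 and 1198 kb from Sox9. Which of these genes, if either, is regulated through these peaks was not tested.

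Kcnj6, a G-protein-gated rectifier (GIRK2), had 8 peaks scored from 10.3 to 56, of which 7 held a core and 5 were inside the gene. Its peak of score 47.2 held 3 cores, 2 of them GTAAACA. The peak upstream of the gene at 96.2 kb, scored 23, was sharp, with a focus ratio of 0.921, and had no core. Kcnj15 had 5, scored from 10.7 to 18.9, with 1 of them 262 bp past a start site. Kcnj8 encodes Kir6.1, the pore of the vascular ATP-sensitive channel, and its 2 peaks, scored 13.7 and 12.3, were both inside Abcc9, which encodes the sulfonylurea receptor that assembles with it.

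**Figure D3:**
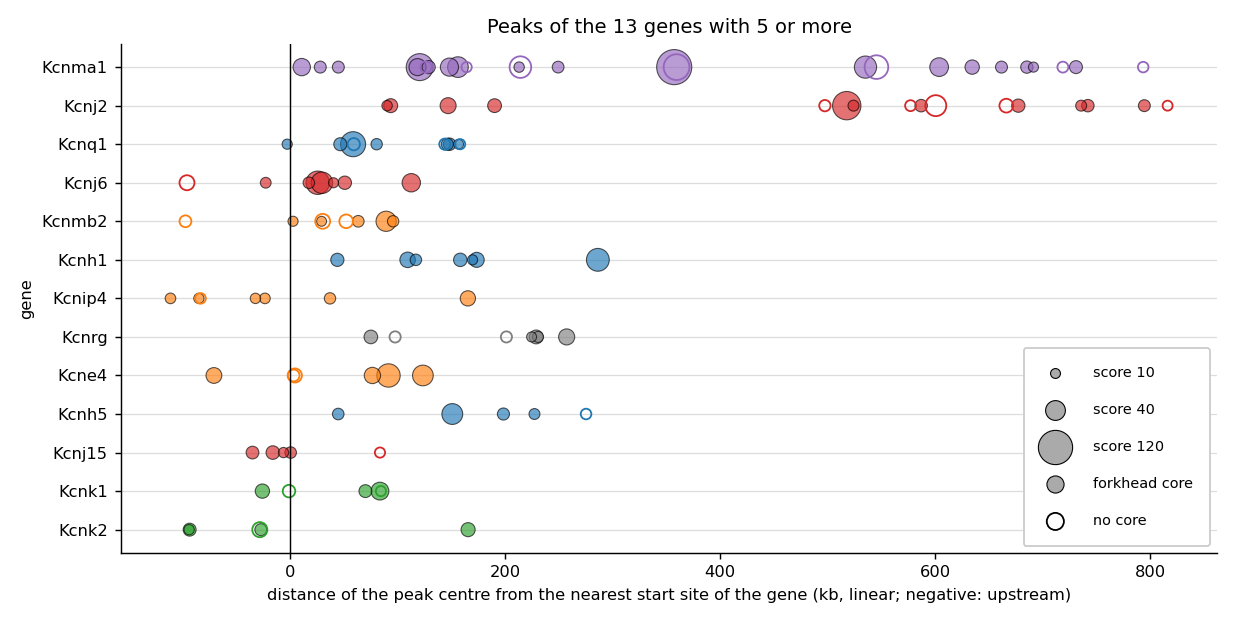
Distance of each peak from the nearest start site of its gene (kb, horizontal axis, negative upstream) for the 13 genes with 5 or more peaks, 1 row a gene. Circle area is proportional to score and filled circles hold a forkhead core. All peaks of Kcnma1 and Kcnj2 are downstream, with 10 and 11 of them beyond 500 kb.

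Among the voltage-gated subunits, Kcnq1, which encodes the pore of the slow cardiac delayed rectifier and of epithelial channels, had 10 peaks in a territory of 183 kb, 5.46 per 100 kb. Scores ran from 10.1 to 64.2, with a median of 14.05, and 7 peaks held a core. The highest, 58.3 kb into the gene, carried the GTAAACA match shown above. There were 5 in a cluster of 14.4 kb (chr7:143251163-143265610) within the span of Kcnq1ot1, the antisense noncoding RNA of this imprinted region. They scored only 10.1 to 15.9, and 3 held a core. In all, 14 peaks lay inside Kcnq1, 9 of them nearest to its own start sites.

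Kcnh1, which encodes the EAG1 channel mutated in human syndromes with craniofacial and nail anomalies, had 7 peaks, every one within the gene and with a core. Their scores ran from 10.5 to 53.3, with a median of 18.5, and the highest was also sharp, at a focus ratio of 0.929. That peak was 286 kb from the Kcnh1 start site and 294 kb from that of Hhat. With start sites of every biotype it was assigned to another gene. The related gene Kcnh5 had 5, all in the gene, scored from 11.5 to 44.4, and 4 held a core. Core presence at Kcnh1 was 7 of 7 (59.0 to 100), an interval that holds the 72.5% of all peaks.

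Kcna1, a delayed-rectifier subunit of axons, had 2 peaks, one of score 21.6 and one of 94, the second-highest score of the family and rank 201 of the list. The latter was 40.5 kb upstream, in a cluster of Kcna genes, and held 2 cores, the nearer 45 bp from the centre. Kcna5, the ultrarapid rectifier of the atrium, had 4, scored from 19.9 to 38.5, and the lowest of these was sharp, at 0.922. Kcnb2, a slow delayed rectifier, had 3, of which the one 179.8 kb upstream scored 13.6 with a focus ratio of 0.949 and 3 cores. Sequence marked as repeat made up 87% of its central 200 bp, against a median of 10.5% over the channel gene peaks.

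Among the leak channels, Kcnk9 (TASK-3) stood out for sharp peaks without a forkhead core. Its 4 peaks scored 77.6, 54.2, 19.6 and 10.5, at focus ratios of 0.953, 0.962, 0.723 and 0.83. The 2 highest-scored, 22.4 and 144 kb upstream, had no core and an RE1 match of 1 and 2 mismatches, and the other 2 had 1 core each. The peaks scored 54.2 and 19.6 lay inside the neighbour Trappc9. With start sites of every biotype, none of the 4 was assigned to Kcnk9. Kcnk1 and Kcnk2 (TREK-1, a stretch-sensitive channel) had 5 peaks each, all outside the genes, with top scores of 32.6 and 23.2. Over the class, 12 of 21 peaks held a core, 57.1% (34.0 to 78.2), below the 72.5% of the list, which lies within that interval.

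Among the auxiliary subunits, Kcnmb2, a beta subunit that partners the Kcnma1 pore, had 8 peaks scored from 10.1 to 41.7, 6 of them in the gene and 5 with a core. Kcnip4, an accessory protein of A-type channels, had 7 in a territory of over 1 Mb, scored from 10.8 to 23.8. Kcne4 had 6, scored from 14.4 to 55.8, and 4 held a core. By start sites of every biotype Kcnip4 kept 2 of its 7 peaks and Kcne4 0 of its 6. Kcnrg, which was counted apart from the auxiliary subunits, had 7, all downstream between 74.9 and 257 kb, scored from 10.2 to 26.5. Each was nearly as close to Trim13, from 82.8 kb for the nearest to 265.0 kb for the farthest, and with start sites of every biotype none was assigned to Kcnrg. Peaks of some genes of the family lay within a neighbour: the 4 of Kcnip2 in Armh3, 3 of the 4 of the voltage-gated subunit Kcns2 in Stk3 and both of Kcnmb1 in Kcnip1. Over the family 72 peaks were inside their own gene (36.9%), 26 inside another protein-coding gene alone (13.3%) and 97 in none.

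The peaks of channel genes were seldom at a start site. Promoters, taken as 1000 bp before to 100 bp after the start of a transcript of any kind, held 5 of 195, 2.56% (0.838 to 5.88), against 8.52% of all peaks. Only that of Kcnu1 was at the promoter of the channel gene itself. The peak of Kcnd3, an A-type channel, was 764 bp before the start of the antisense Kcnd3os and 633 bp after one of its own. That of Kcne4 was 146 bp before the lincRNA Gm29187, that of Kcnrg 17 bp before a start of Dleu2 and that of Kcnq1 98 bp before the small RNA Gm27395.

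The peaks closest to a channel start site carried cores all the same, and their scores were low to middling. The plus-strand sequences follow, for the Kcnu1 peak up to the annotated transcript start, for the 5' untranslated part of Kcnab1 as the site alone, and for an intron of Kcnj15.
Kcnu1, chr8:25911631-25911679: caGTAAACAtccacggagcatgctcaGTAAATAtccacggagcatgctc
Kcnab1, chr3:65109545-65109574: tccagcttggcTGTTTACttctttgggtcc
Kcnj15, chr16:95258516-95258585: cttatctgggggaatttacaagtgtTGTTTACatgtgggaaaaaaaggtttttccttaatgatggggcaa
They scored 10.6, 11.5 and 13.7, against 21.8 for the Kcnd3 peak, which also had a core.

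The median distance to a start site was 85.1 kb (63.1 to 97.7) for channel gene peaks and 51.3 kb for all peaks. Under 1 kb lay 4 peaks, 2.05% (0.562 to 5.17) against 9.27%, and over 500 kb lay 25, 12.8% (8.47 to 18.3) against 4.58%. The excess of far peaks came from 2 genes: Kcnj2 held 11 and Kcnma1 10 of the 25. Without these genes 4 of 154 peaks were over 500 kb away, 2.60% (0.712 to 6.52), and the median distance was 60.3 kb, while the share under 1 kb was also 2.60%. Introns held 49.2% of the peaks and intergenic sequence 42.1%, against 45.4% and 40.7% of all peaks, each within the interval.

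**Figure D4:**
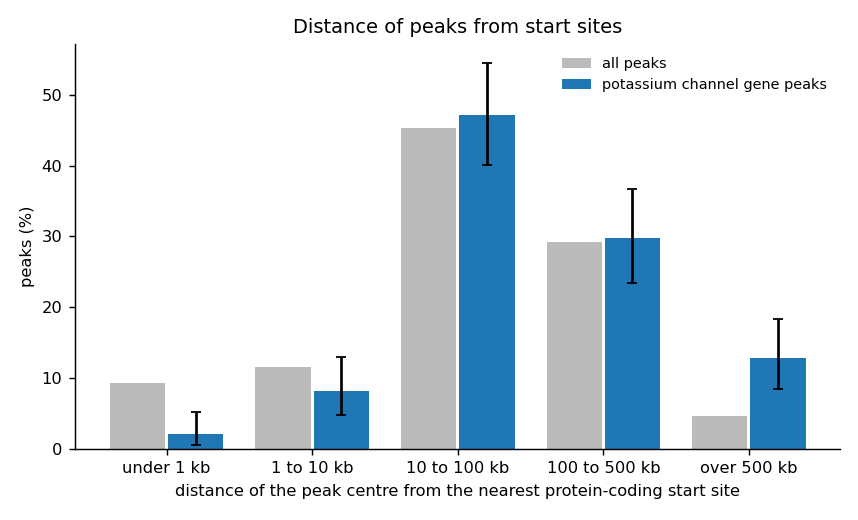
Share of peaks (percent, vertical axis) by distance of the peak centre from the nearest protein-coding start site, for all peaks (grey) and potassium channel gene peaks (blue) with exact 95% intervals. Under 1 kb the channel genes have 2.05% against 9.27%, and over 500 kb 12.8% against 4.58%.

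The forkhead core was as frequent as in the list. It was present in 143 of 195 peaks, 73.3% (66.5 to 79.4), against 72.5%, and in 16.9% of windows 2000 bp to either side of them. GTAAACA alone was in 30.3%, against 27.4%. Of the peaks 52 had no core, 98 had 1, 37 had 2 and 8 had 3 or more, and in 109 of the 143 the core nearest the centre was within 20 bp of it. The E-box words CATCTG and CAGCTG were in 43.1% against 41.8%, and the TEAD word GGAATG in 13.8% against 15.1%. Intervals on the channel gene shares held the share of all peaks for each of these words.

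Median scores and focus ratios were close to those of the list. The score had a median of 15.4 (14.3 to 17.1) against 16.2, and 9 of the 195 peaks were in the top 1000 (4.62% against 3.89%) and 1 in the top 100. At the other end 32 peaks (16.4%) were in the lowest-scored 10% of the list, and 23 (11.8%) in the highest-scored 10%. The focus ratio had a median of 0.797 (0.783 to 0.811) against 0.783, from 0.582 in a Kcne4 peak to 0.962 in a Kcnk9 peak. These 2 measures were weakly related, at a Spearman correlation of 0.151 over the 195 peaks and 0.264 over all peaks, given as descriptions.

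**Figure D5:**
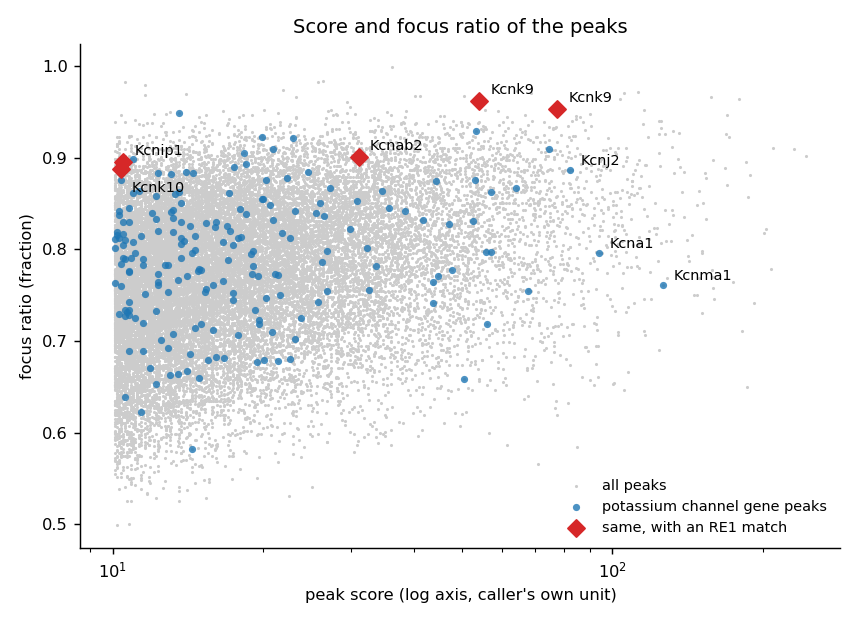
Score (horizontal log axis, caller's own unit) and focus ratio (vertical axis) of all 25704 peaks (grey) and the 195 peaks of potassium channel genes (blue), with red diamonds for those with an RE1 match. The 2 Kcnk9 diamonds are at 0.962 and 0.953, and the highest-scored peak of Kcnma1 is at 126 and 0.761.

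RE1 matches were found in 5 of 195 peaks, 2.56% (0.838 to 5.88), against 0.564% of all peaks (145 of 25704), and in none of the windows to either side of the 195 peaks against 0.130% over the list. Without the peaks of Kcnk9 the count was 3 of 191, 1.57% (0.325 to 4.52), an interval that holds the share of the list. The best matches were those of Kcnk9 and Kcnab2, 1 mismatch each, among 13 such peaks in the list. Kcnab2 encodes a beta subunit of voltage-gated channels, and its peak scored 31.1 with a core, while Kcnip1, a calcium-binding accessory protein, and Kcnk10 (TREK-2) scored 10.5 and 10.4 without one. In all, 4 of the 5 had no core, and 78 of the 145 in the list (53.8%).

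RE1 was searched because earlier results tied sharp peaks to it, so a high focus ratio here is no separate evidence. The RE1 peaks of channel genes were sharp. Their focus ratios were 0.962, 0.953, 0.901, 0.895 and 0.888, above the 0.796 median of the other channel gene peaks, and the 145 RE1 peaks of the list had a median of 0.858 against 0.782. A focus ratio of 0.95 or more was found in 34 peaks of the list, of which 5 held RE1. By protein-coding start sites, 2 of these were those of Kcnk9. What accounts for the recovery of these regions was not tested.

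Other ion transport genes gave shares on both sides of the 37.3% of all genes, within wide intervals. A peak was nearest to 13 of 26 calcium channel genes, 50% (29.9 to 70.1), with 49 peaks led by Cacna2d3 (11), Cacnb2 (10) and Cacna1c (9). The sodium channels had 5 of 14, 35.7% (12.8 to 64.9), with 7 peaks, and the Hcn pacemaker channels 1 of 4. Of 9 partner genes of potassium channels outside the Kcn names 5 had a peak, among them Dpp10 with 4 and Abcc9 with 2. The cation-chloride carriers had 4 of 7, with 5 peaks at Slc12a2.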

How the data were processed

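Per the labels, chromatin from E12.5 tongues was precipitated with anti-FLAG and sequenced on an Illumina NextSeq500 beside an input library. Per the submitters' processing notes, reads were aligned to mm10 with Bowtie2 (2.4.1), handled with SAMtools (1.7.1) and peaks called with HOMER. For the caller's version and settings and any pooling of the ChIP libraries, nothing is given in the sources used here. The peak score is the authors' value as deposited, on a scale not stated, and was used to rank and describe peaks. The last column, per the file headers a focus ratio or region size, holds a fraction and was read as the focus ratio. Depth and the precision it gives are unknown.

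Peaks on assembled chromosomes were assigned to the nearest protein-coding TSS of GENCODE M21 basic transcripts by their centre, at any distance. Motifs were matched in the central 200 bp and in windows 2000 bp to either side. Medians carry exact order-statistic intervals at 95%. Members, lists and the RE1 motif were chosen with earlier results of these data known. Genes are named if among the 10 with most peaks, owning one of the 10 highest-scored or sharpest member peaks, or having a promoter peak or RE1 match. Other members named with values, and the genes without a peak, were picked after their values were seen. Among comparison lists the genes with most peaks are named. Alternatives covered assignment, score, motif form, window and promoter width. The forkhead search, the RE1 search and the search for the nearest start site were tested on simulated data, and the other steps were not. Scripts ran in Python 3.11.15 with scipy 1.17.1, pandas 2.3.3, numpy 2.4.6 and, for plots, matplotlib 3.10.9.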

Additional observations from a re-analysis of the deposited data

How the results depend on the processing

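Of the alternatives run, 21 left a count within 1.5 times its value, or another value within its interval, and 12 moved it. Assignment mattered most. With peaks within 10 kb of a TSS, 18 genes and 20 peaks remained to be counted (10.3% of the channel gene peaks, against 20.9% of all peaks). Inside gene spans there were 24 genes and 89 peaks. Within 100 kb there were 112 peaks, and 42.6% of the channel gene peaks lay beyond that, against 33.8% of all peaks. TSSs of every biotype gave 70 peaks (2 of them of Kcnma1), and the higher-scored part of the list (score of at least the median) 90. For gene spans, every biotype and the higher-scored part no share of all peaks is set beside the peak count. Those falls are therefore not results about the channel genes. The core share was 30.3% for GTAAACA alone (27.4% of all peaks) and 80% in the higher-scored part (78.4%). Promoters from 2500 bp upstream to 500 bp downstream held 14 peaks (3520 in the list). After seeing the data, Kcnma1 and Kcnj2 were left out, giving 2.60% of peaks over 500 kb from a TSS, and Kcnk9 was left out, giving 3 peaks with RE1. No paired analysis was possible because the list holds no values per library. Depth was unknown, so peaks below the caller's threshold cannot be told from unbound sites.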
